A study of Mus musculus with 3 samples.

Results

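The IκB family is a set of ankyrin-repeat proteins that bind the NF-κB transcription factors, and 6 of its genes are described here: Nfkbia, Nfkbib and Nfkbie, which encode the cytoplasmic inhibitors IκBα, IκBβ and IκBε, and Nfkbiz, Nfkbid and Bcl3, which encode the nuclear members IκBζ, IκBNS and BCL3. They were chosen as listed genes by their GENCODE M21 gene names, and make up 6 of the 55536 annotated genes in the tables, of which 22028 are protein-coding. RNA was taken from the chromatin fraction of macrophages grown from bone marrow of C57BL/6J mice, depleted of ribosomal RNA and sequenced in 3 libraries. All 3 belong to 1 condition: the cells received Lipid A, the membrane anchor of bacterial endotoxin and a TLR4 agonist, at 100 ng/ml for 12 hours, were kept without it for 12 hours after a wash, and received 100 ng/ml again for 25 minutes before harvest. No untreated, singly treated or whole-cell sample was analysed here, so every value is a level after the second exposure and none is a response to it. The labels call the libraries biological replicates 1 to 3 but give them the same donor identifier, and do not record sex or age. Nothing in them shows separate animals, so the spread between libraries may be technical.

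In resting cells, cytoplasmic IκB proteins hold NF-κB dimers away from DNA. A TLR4 signal activates the IκB kinase (IKK), which phosphorylates these inhibitors so that they are ubiquitinated and degraded, and the freed dimers switch on target genes that include Nfkbia itself. The nuclear members are not inhibitors of the same kind: they bind NF-κB subunits already in the nucleus and can raise or lower transcription of particular genes. Chromatin RNA is enriched for transcripts still being made or spliced, so its levels lie nearer to synthesis than those of whole-cell RNA, and its reads fall on introns more often.

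The annotated gene counts summed to 13502401, 17848798 and 17824176 in replicates 1, 2 and 3, which were made from 1 µg, 250 ng and 500 ng of RNA. The ribosomal RNA locus on chromosome 17 took 11.1%, 31.8% and 24.8% of those counts. Replicates differed from each other by more than counting noise, with a chi-square per degree of freedom of 21.3 to 40.8 over the 3 pairs of libraries, the ribosomal locus left out. All 10 macrophage markers examined reached 1 TPM (a level scaled by transcript length and library total) in every library. Of 28 markers of neutrophils, T cells, B cells, dendritic cells and fibroblasts, only Cd4 did, at 7.90 ± 1.89 TPM (SD, n = 3), while Cd3e, S100a8, Ly6g, Elane, Retnlg and Pax5 were at 0 in every library. In the second of the quantifications described next, 3 of 6 T cell, 2 of 4 dendritic cell, 1 of 8 neutrophil, 1 of 5 fibroblast and 0 of 5 B cell markers reached it. The T cell markers were Cd3d at 12.1 ± 4.41 TPM, Cd4 at 8.09 ± 1.99 and Cd8a at 2.20 ± 0.341 (SD, n = 3). Retnlg, Cd3e and Ly6g were not at 0 there, with means of 0.311, 0.0619 and 0.0528 TPM. These are bulk samples, so fewer cells carrying a transcript and less of it per cell cannot be told apart.

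All 6 members reached 1 TPM in every library, against 44.0% of all protein-coding genes. The authors deposited 2 quantifications of each library. Unless stated, TPM below are from the first, whose gene table was used for levels; the second quantification was summed over the transcripts of each gene.

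Nfkbia, which encodes the classical inhibitor IκBα and spans chr12:55489410-55492647 (mm10, minus strand), had the highest level of the family. It stood at 268 TPM in replicate 1, 157 TPM in replicate 2 and 282 TPM in replicate 3, a mean of 236 ± 68.2 (SD, n = 3), and ranked 130 among protein-coding genes. The value rested on 4608, 3126 and 6156 expected counts. Replicate 2 lay below the other two by 1.70-fold or more. Nfkbia alone made up 51.0% ± 1.62 (SD, n = 3) of the TPM of the 6 genes together, and 50.9% ± 1.32 in the second quantification. Its part of the family total moved far less between libraries than its level, but this is partly built in, since Nfkbia is itself in that total. In the first quantification the part of Nfkbiz ranged from 19.4% to 28.2% and that of Bcl3 from 6.12% to 12.2%.

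Nfkbie, which encodes IκBε, an inhibitor that binds RelA and c-Rel dimers, lies at chr17:45555703-45563169 on the plus strand. Its level was 36.9, 18.7 and 39.0 TPM in replicates 1, 2 and 3 (31.6 ± 11.2, SD, n = 3), from 1300, 805 and 1784 expected counts. Replicates 1 and 3 were nearly equal and replicate 2 was at 0.480 of replicate 3.

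Nfkbib, which encodes IκBβ, spans chr7:28758251-28767512 on the minus strand and was the lowest of the 6. Its TPM was 18.2 in replicate 1, 8.17 in replicate 2 and 13.3 in replicate 3 (13.2 ± 4.99, SD, n = 3), on 272, 161 and 266 expected counts. Its ends overlap 2 genes of the opposite strand, Sirt2 at 40.8 ± 3.07 TPM and Ccer2 at 1.25 ± 0.618 TPM (SD, n = 3). The strand setting of the counting is not given in the sources used here, so reads from the overlapping stretches cannot be assigned to one gene with certainty.

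Of the nuclear members, Nfkbiz was the highest. It encodes IκBζ, an activator of secondary response genes such as Il6 and Lcn2, and spans chr16:55811375-55838899 on the minus strand. The level was 154 TPM in replicate 1, 58.9 TPM in replicate 2 and 128 TPM in replicate 3 (114 ± 49.1, SD, n = 3), from 6738, 3128 and 7177 expected counts. The highest library was 2.61 times the lowest, and 3.05 times in the second quantification, the widest range among the 6 genes in both.

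Bcl3, whose product binds p50 and p52 homodimers, showed the narrowest range. It lies at chr7:19808462-19822770 on the minus strand and was measured at 33.4, 37.0 and 38.5 TPM in replicates 1, 2 and 3 (36.3 ± 2.62, SD, n = 3), on 351, 494 and 523 expected counts. Its highest library was 1.15 times its lowest. The antisense genes Gm16175 and Gm16174 overlap it with at most 2 and 22 expected counts in any library.

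Nfkbid, which encodes IκBNS, a partner of p50 described as both a repressor and an activator, is at chr7:30421732-30428746 on the plus strand. Its TPM was 34.9, 23.0 and 40.8 in the 3 libraries (32.9 ± 9.05, SD, n = 3), on 558, 458 and 887 expected counts.

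**Figure D1:**
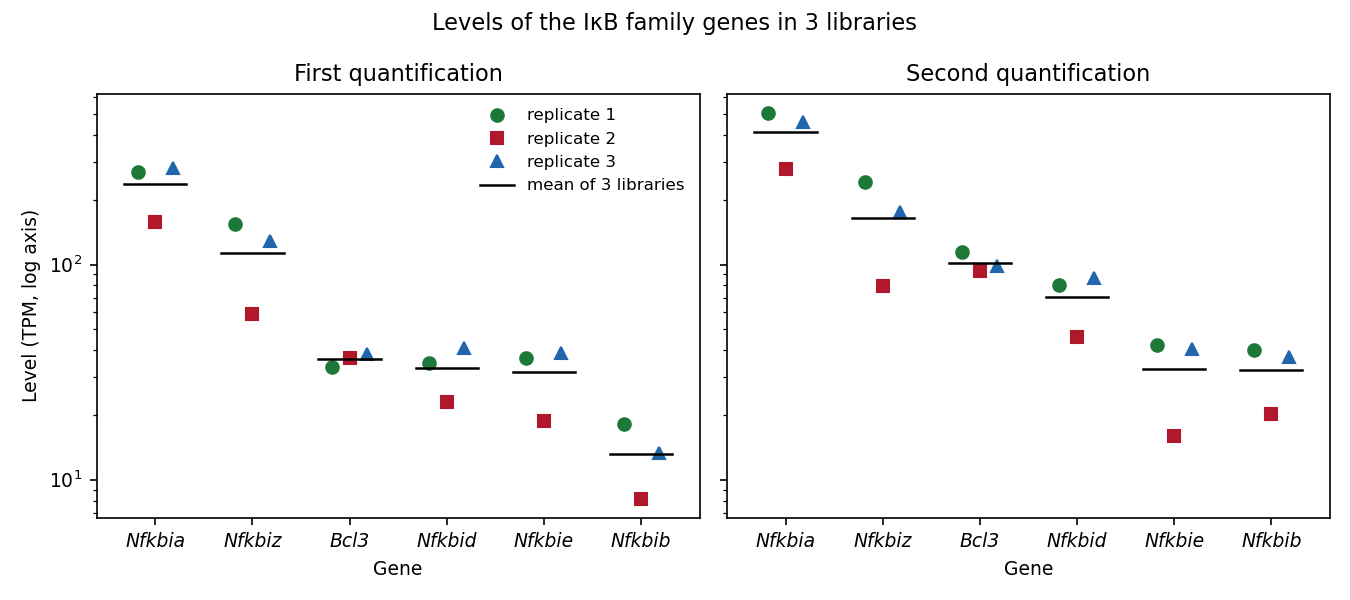
Level of each IκB family gene (TPM, log axis) in replicates 1, 2 and 3 (circles, squares, triangles), with the mean of the 3 libraries as a bar, in the first and second quantification. Nfkbia (mean 236 TPM) and Nfkbiz (mean 114 TPM) stand above the other 4 genes in every library of the first quantification, and replicate 2 is the lowest library for every gene but Bcl3 there.

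The order of means was Nfkbia, Nfkbiz, Bcl3, Nfkbid, Nfkbie, Nfkbib in both quantifications. Neighbours in this order were compared within each library as the log2 ratio of TPM + 1, tested by exact sign flips over libraries (two-sided). With 3 libraries the smallest possible p is 0.25, so no pair could pass 0.05. Nfkbia exceeded Nfkbiz in 3 of 3 libraries, by 1.11 ± 0.30 on the log2 scale (SD, n = 3; exact p = 0.25, adjusted over the 5 neighbouring pairs 0.417). Nfkbiz exceeded Bcl3 in 3 of 3 libraries by 1.51 ± 0.78, with the smallest log2 difference, 0.66, in replicate 2. Nfkbiz was higher in 2 of 3 libraries of the second quantification, by 0.55 on average, and lower in replicate 2 (0.849 times Bcl3). Nfkbie exceeded Nfkbib in 3 of 3 by 1.19 ± 0.26, but in 2 of 3 libraries of the second quantification, where the mean log2 ratio was -0.043. The 3 genes in the middle did not keep 1 order in the first quantification: Bcl3 exceeded Nfkbid in 1 of 3 libraries (0.17 ± 0.42, exact p = 1) and Nfkbid exceeded Nfkbie in 2 of 3 (0.09 ± 0.18, exact p = 0.75). Without replicate 2 these ratios were -0.074 and -0.0074. Both pairs kept 1 order in 3 of 3 libraries of the second quantification, with mean log2 ratios of 0.57 and 1.15. Over all 15 pairs, 12 had the same order in every library of the first quantification, 13 in the second, and 10 in both.

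Replicate 2 was the lowest library for 5 of the 6 members by TPM, a count made after the values were seen. Among the 9689 protein-coding genes detected in every library, 31.2% were lowest there. In the second quantification all 6 members were lowest in replicate 2, but so were 56.3% of the 11833 genes detected in it. On counts normalised by edgeR's trimmed mean of M-values (TMM), the log2 deviation of replicate 2 from the gene's mean was -0.81 for Nfkbiz, -0.65 for Nfkbie, -0.55 for Nfkbia, -0.53 for Nfkbib, -0.45 for Nfkbid and 0.10 for Bcl3. Among the 14193 genes kept for this fit, these deviations lay at percentiles 0.930, 1.73, 2.75, 3.02, 4.53 and 64.7. In that library the first 5 of these genes sat in the lowest 5% of genes, and Bcl3 did not. Replicate 2 was also the library with the least starting RNA and the largest share of ribosomal RNA counts. With that locus removed and TPM rescaled, the same 5 members were lowest in replicate 2. The share of all genes lowest in replicate 2 after this rescaling was not counted, so that 5 has no background beside it. On the TMM counts, 5 of the 6 members and 33.9% of the 14193 genes were lowest in replicate 2. After rescaling, the ratio of highest to lowest library was 2.29 for Nfkbiz and 1.68 for Nfkbia. The part that starting RNA had in the difference was not tested.

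**Figure D2:**
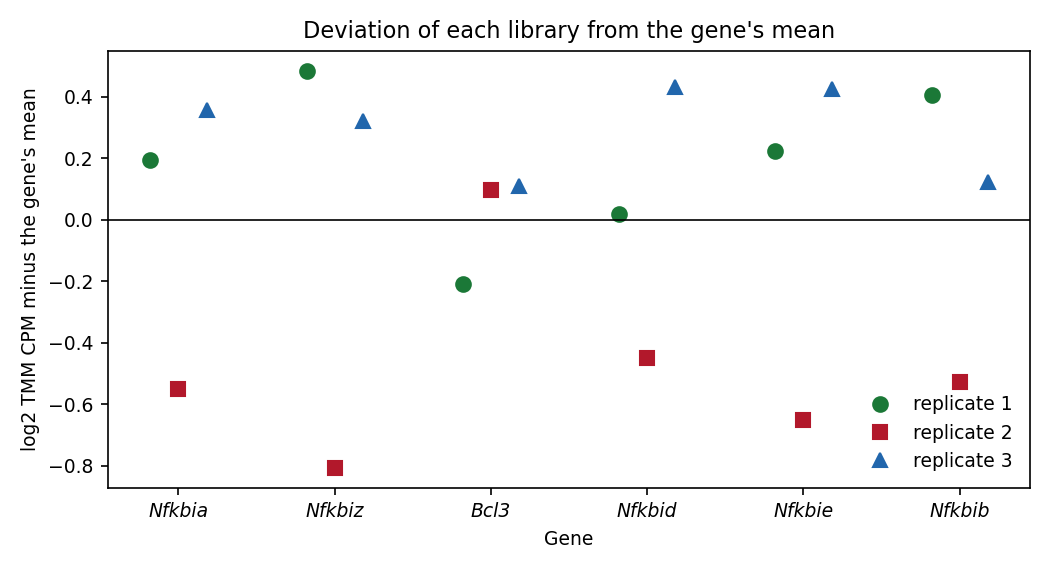
Deviation of each library from the gene's mean over the 3 libraries, in log2 CPM after TMM normalisation, for the 6 genes in order of mean TPM. Replicate 2 (squares) lies between -0.81 and -0.45 for 5 genes and at 0.10 for Bcl3.

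The edgeR biological coefficient of variation, the spread between libraries beyond counting noise, was 0.277 for Nfkbiz, 0.245 for Nfkbie, 0.233 for Nfkbib, 0.228 for Nfkbia and Nfkbid, and 0.186 for Bcl3, beside a median of 0.203 over all genes kept. With 3 libraries the single-gene values are pulled strongly to the trend of genes at like level, so they understate a gene's own departure from it. Nfkbiz stood above 98.0% of the 151 genes within 0.25 log2 CPM (counts scaled by library total) of it, and Bcl3 above 45.3% of the 972 at its level. Without replicate 2 the value for Nfkbiz was 0.179, and without replicate 1 or 3 it was 0.225 or 0.233. The other members also had lower values without replicate 2, from 0.172 for Nfkbie to 0.190 for Nfkbib. No median over all genes was set beside these fits to 2 libraries.

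The 6 genes carry 24 annotated transcripts: 15 labelled protein_coding, 5 labelled retained_intron and 4 labelled processed_transcript, a class without a coding frame. Nfkbia, Nfkbie and Nfkbid have 1 retained_intron transcript each, Bcl3 has 2, and Nfkbib and Nfkbiz have none. An intron that no annotated transcript contains has no row of its own in these tables, so the shares below speak of annotated retained_intron transcripts alone. Chromatin RNA also holds transcripts not yet spliced, and these shares cannot tell them apart from retained introns. The label also covers transcripts that begin inside an intron. Introns are numbered here in the coding transcript with the lowest number, which is Nfkbie-201 for Nfkbie and Nfkbid-201 for Nfkbid. Among the members, whole introns of it are held by Nfkbie-202 (intron 2 of 5, 610 bases, chr17:45558598-45559207) and Nfkbid-204 (intron 6 of 10, 114 bases, chr7:30425856-30425969). Nfkbia-202 holds the last 32 of 521 bases of intron 1, Bcl3-202 the last 320 of 7533 bases of intron 2, and Bcl3-206 the last 190 of 705 bases of intron 3. Over the whole annotation, 6489 of 21421 retained_intron transcripts of genes with both types (30.3%) hold a whole intron of a coding transcript.

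The intron bases that set the transcripts of Nfkbie, Nfkbid and Nfkbia apart are shown because the retained-intron share rests in part on reads that touch them. Nfkbie-202 and Nfkbia-202 have 79.7% and 95.4% of their bases in exons of the coding transcript. Their shares therefore also depend on how reads from shared bases are assigned. The Bcl3 stretches are not printed. Sequences are from the GENCODE M21 transcripts (GRCm38, the genome release also called mm10), 5′ to 3′ on the gene's strand, with intron bases in capitals and neighbouring exon bases in lower case. The first pair are the ends of the Nfkbie intron, at chr17:45558578-45558677 and chr17:45559128-45559227, followed by the whole Nfkbid intron at chr7:30425836-30425989 and the short stretch of Nfkbia intron 1 at chr12:55491759-55491810.
Nfkbie-202, intron 2, 5′ end: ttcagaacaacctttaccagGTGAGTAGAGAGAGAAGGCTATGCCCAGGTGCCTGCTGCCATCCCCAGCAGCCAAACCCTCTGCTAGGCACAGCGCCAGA
Nfkbie-202, intron 2, 3′ end: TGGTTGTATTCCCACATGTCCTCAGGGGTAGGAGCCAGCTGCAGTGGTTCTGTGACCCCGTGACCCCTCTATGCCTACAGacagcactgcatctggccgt
Nfkbid-204, intron 6: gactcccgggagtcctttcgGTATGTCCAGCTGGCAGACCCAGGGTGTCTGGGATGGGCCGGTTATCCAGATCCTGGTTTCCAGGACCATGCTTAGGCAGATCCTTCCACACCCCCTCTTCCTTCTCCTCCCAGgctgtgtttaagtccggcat
Nfkbia-202, intron 1, last bases: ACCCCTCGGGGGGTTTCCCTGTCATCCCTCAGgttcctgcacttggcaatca
Both whole introns begin with GT and end with AG, the usual splice-site letters. Read in the frame of Nfkbie-201, the Nfkbie intron reaches its first stop codon at intron base 175. The Nfkbid intron is a multiple of 3 long (38 codons), and no stop codon was found in it in the frame of Nfkbid-201. The Nfkbia stretch starts with AC, not GT, since it begins within the intron.

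Nfkbie had the largest retained-intron share of the 4 genes. Nfkbie-202 took 72.0%, 85.0% and 81.0% of the gene's TPM in replicates 1, 2 and 3 (79.4% ± 6.66, SD, n = 3), with 993, 708 and 1506 expected counts and posterior SDs, the quantifier's own uncertainty, of 34.3, 13.7 and 30.3 counts. By expected counts the share was 82.9%. It was above 50% in every library of the second quantification too, at 55.0%, 74.9% and 65.5% (65.1% ± 9.93). The coding transcript Nfkbie-201 held 17.4% ± 9.68. On this split, protein_coding transcripts of Nfkbie amounted to 6.85 TPM of its mean of 31.6 TPM.

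Nfkbid-204 took 40.8%, 35.5% and 34.4% of the TPM of Nfkbid (36.9% ± 3.42, SD, n = 3). Both quantifications gave nearly the same share here, with 34.9% ± 1.94 in the second. This transcript is 509 bases long against 2039 for Nfkbid-201, so 57.4, 33.4 and 64.9 expected counts gave its TPM, and by counts its share was 8.29%.

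The Bcl3 share was 60.7%, 63.7% and 60.8% (61.7% ± 1.66, SD, n = 3), of which Bcl3-202 held 45.0% ± 4.74 and Bcl3-206 16.7% ± 3.95. The coding Bcl3-201 and Bcl3-203 held 32.1% ± 3.77 and 6.13% ± 5.40. By expected counts the retained-intron share was 31.3%, below 50%; Bcl3-202 has 694 bases and Bcl3-201 has 1850. By TPM it was 24.2% ± 2.81 in the second quantification. The second gave 62.8 ± 11.6 TPM to the processed transcripts Bcl3-204 and Bcl3-205, 61.2% of the gene, while the first quantification listed both at 0 in every library. Bcl3-204 has 83 bases and Bcl3-205 has 32 bases outside the exons of the coding Bcl3-201. The coding transcript Bcl3-201 differed less, at 11.7 ± 1.87 TPM in the first and 14.2 ± 0.450 TPM in the second quantification. The 2.82-fold higher total of Bcl3 in the second therefore lay mainly in short non-coding transcripts.

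For Nfkbia, the retained-intron share was 9.25%, 10.3% and 7.79% (9.11% ± 1.26, SD, n = 3), and 36.4% ± 5.63 in the second quantification. By expected counts it was 3.35%. Nfkbia-202 shares 669 of its 701 bases (95.4%) with exons of Nfkbia-201, so only the 32 bases printed above belong to it alone. The coding transcript Nfkbia-201 held 90.9% ± 1.26 in the first and 63.6% ± 5.63 in the second.

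**Figure D3:**
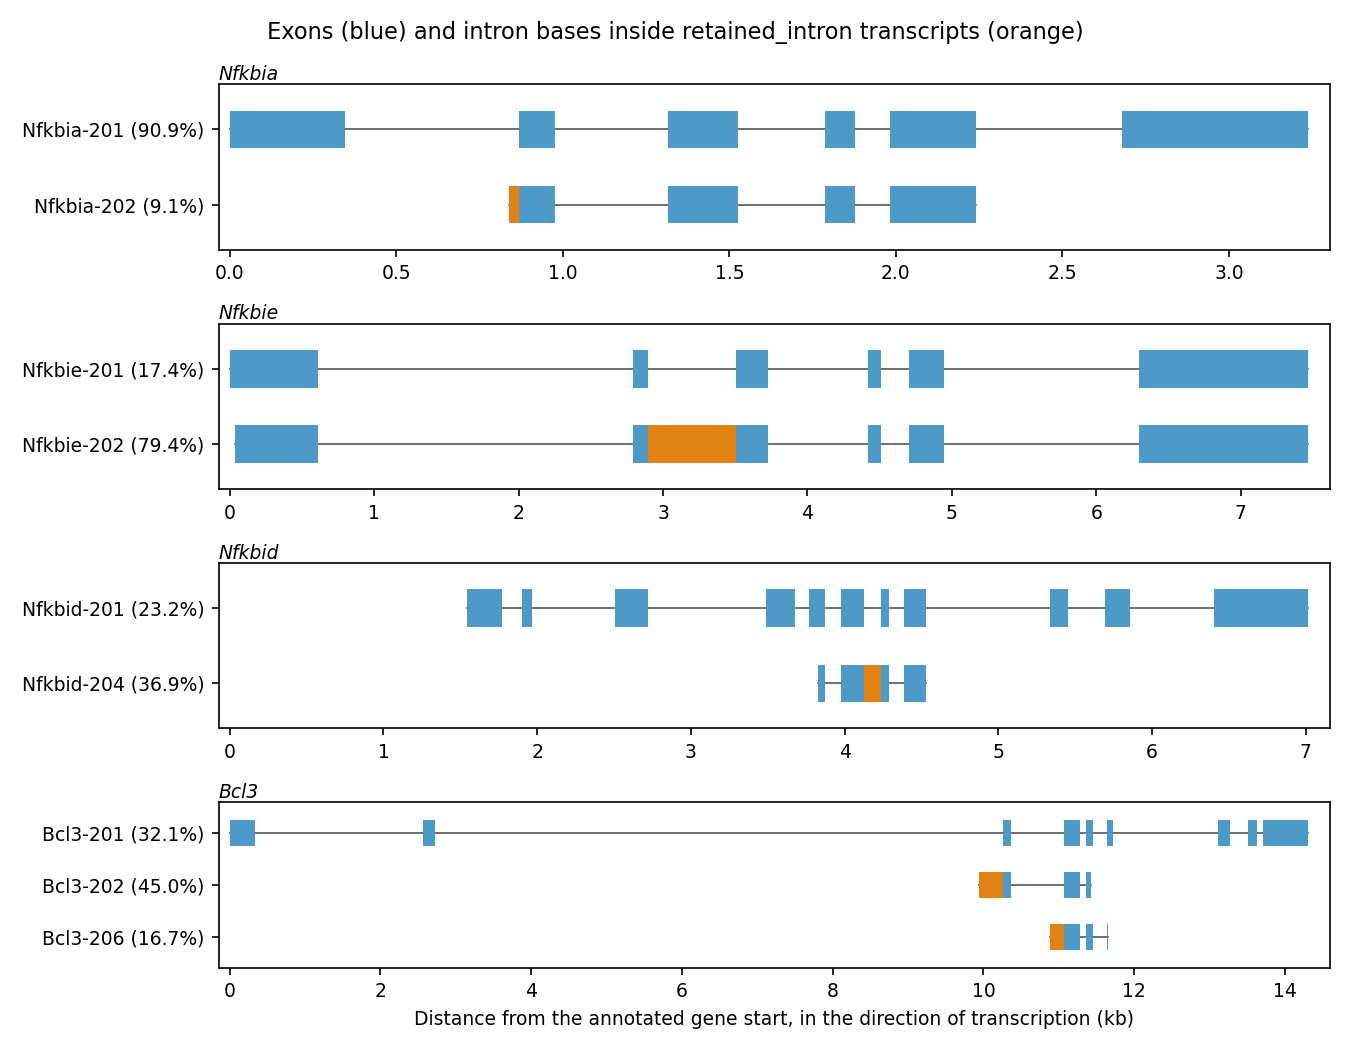
Exons (blue) and intron bases inside retained_intron transcripts (orange) of 4 genes, by distance from the annotated gene start in kb, with the mean share of the gene's TPM in the first quantification beside each transcript name. Nfkbie-202 (79.4%) and Nfkbid-204 (36.9%) hold a whole intron, and the other 3 begin inside one.

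Set beside all 4730 genes with both transcript types and at least 5 TPM in every library, whose median share was 46.0% (quartiles 30.8% and 60.6%), the members spread over nearly the whole range. Nfkbie lay at percentile 94.5, Bcl3 at 76.4, Nfkbid at 34.6 and Nfkbia at 3.74. In the second quantification the percentiles were 79.8, 20.9, 35.8 and 37.9 in the same order. Of the 4 members, 2 (Nfkbie and Bcl3) had a share of 50% or more in every library, against 33.4% of the background genes. In the second quantification 1 member did (Nfkbie), against 34.8% of 5498 genes. With 4 members, neither count describes the family as a group. Differences between members were tested within libraries: each of the 6 pairs had 1 direction in 3 of 3 libraries of the first quantification (exact two-sided sign-flip p = 0.25 for each, adjusted 0.25, the smallest possible). Nfkbie exceeded Nfkbia by 70.2 ± 6.52 percentage points and Bcl3 by 17.6 ± 5.52 (SD, n = 3). Bcl3 exceeded Nfkbid by 24.9 ± 4.33 points and Nfkbia by 52.6 ± 1.00, and both differences took the opposite sign in every library of the second quantification, with means of -10.7 and -12.3 points. Nfkbid exceeded Nfkbia by 27.8 ± 3.33 points, but in 1 of 3 libraries of the second quantification, with a mean of -1.53. The excess of Nfkbie over Nfkbia was 28.7 points there, in 3 of 3 libraries.

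**Figure D4:**
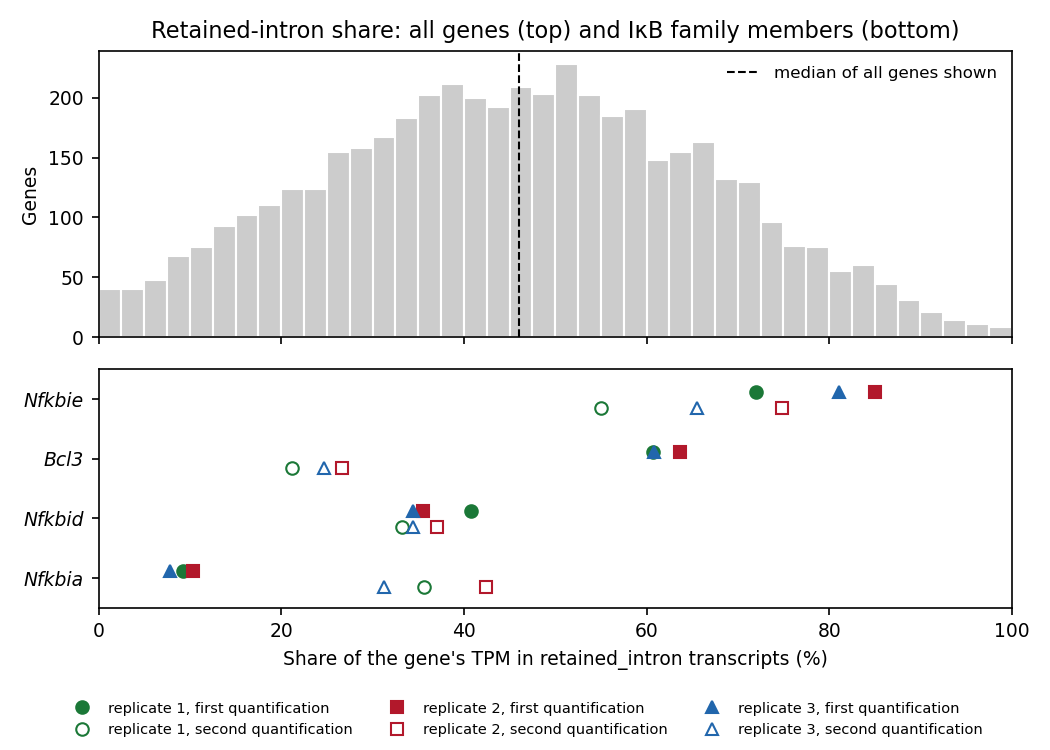
Top, mean retained-intron share (% of the gene's TPM, first quantification) of the 4730 genes with both transcript types, with their median of 46.0% dashed. Bottom, the share of 4 IκB family genes in each library, filled for the first and open for the second quantification, where Nfkbie stays above 50% in both and Bcl3 and Nfkbia move most.

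Of Nfkbiz, nearly all signal was assigned to a transcript with an internal start. Nfkbiz-204, which begins at position 55822138, 16761 bases downstream of the first annotated start at 55838899, held 91.2%, 94.7% and 92.8% of the gene's TPM (92.9% ± 1.75, SD, n = 3). In the second quantification it held 80.5% ± 5.68. Coding transcripts from the upstream start, Nfkbiz-201 to Nfkbiz-203, held 1.59% ± 0.826 and 10.5% ± 5.52 in the first and second quantification. The non-coding Nfkbiz-205 from the same upstream start held 5.50% ± 1.35 and 9.02% ± 0.178. Nfkbiz-204 has 23 bases outside the exons of Nfkbiz-201, so the 2 transcripts share nearly all of its sequence.

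Nfkbid has 3 coding transcripts with different starts. The first quantification gave Nfkbid-203 39.5% ± 3.55, Nfkbid-201 23.2% ± 3.60 and Nfkbid-202 0.434% ± 0.752 of the gene's TPM (SD, n = 3). The second gave Nfkbid-202 29.7% ± 7.24, more than Nfkbid-203 at 19.4% ± 1.60 or Nfkbid-201 at 16.0% ± 4.06. Nfkbid-202 and Nfkbid-203 have 90 and 103 bases outside the exons of Nfkbid-201. The sum of the 3 was close in both quantifications, at 63.1% ± 3.42 and 65.1% ± 1.94. The Nfkbib signal lay mainly in Nfkbib-202, with 80.7% ± 8.98 in the first and 71.2% ± 12.5 in the second quantification. Nfkbib-201 held the rest in the first, at 19.3% ± 8.98, and 7.64% ± 1.21 in the second. Nfkbib-203 was at 0 in every library of the first but held 21.2% ± 12.0 in the second. One of its exons, chr7:28767471-28767512, lies inside the overlap with Sirt2.

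**Figure D5:**
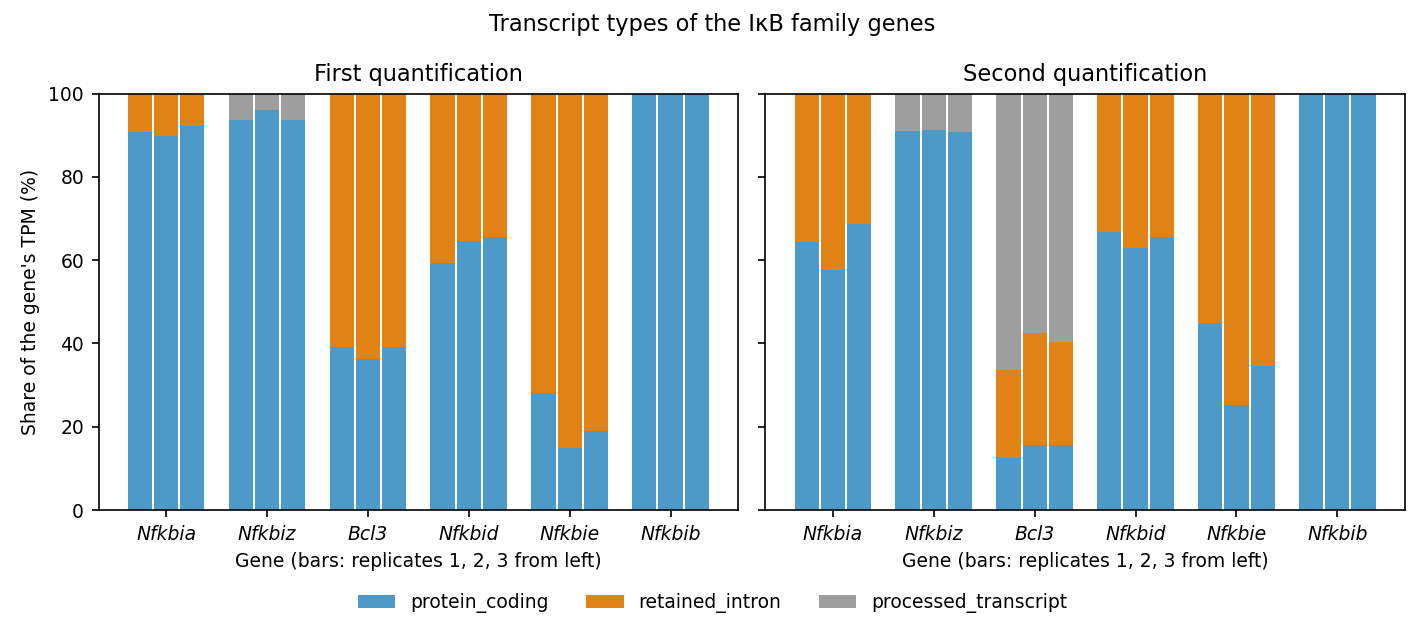
Share of each gene's TPM (%) in protein_coding, retained_intron and processed_transcript transcripts, with 1 bar for each of replicates 1, 2 and 3, in the first and second quantification. The processed_transcript part of Bcl3 is 0 in the first and 61.2% on average in the second, and Nfkbib is protein_coding throughout.

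Promoter sequence was examined because NF-κB target genes include Nfkbia itself, and every member with an annotated RefSeq start was searched. RefSeq (GRCm38.p6) gave 7 start sites for 5 members, with no entry for Nfkbiz, and the 250 bases before each start were searched on both strands for the 10-base NF-κB consensus motif. Nfkbia and Nfkbie had 1 match each, the middle of the 3 Nfkbid starts had 2, and the windows of Nfkbib, Bcl3 and the other two Nfkbid starts had 0. Of all 32851 promoters, 3.90% held a match and 0.493% held 2 or more. The Nfkbia match ends 19 bases before the start, the Nfkbie match 96 bases, and the Nfkbid matches 216 and 171 bases. A match describes these letters and not binding, which was not measured. The 3 windows are printed with the matches in capitals, from chr12:55492648-55492897 (minus strand), chr17:45555450-45555699 (plus strand) and chr7:30422156-30422405 (plus strand).
Nfkbia promoter: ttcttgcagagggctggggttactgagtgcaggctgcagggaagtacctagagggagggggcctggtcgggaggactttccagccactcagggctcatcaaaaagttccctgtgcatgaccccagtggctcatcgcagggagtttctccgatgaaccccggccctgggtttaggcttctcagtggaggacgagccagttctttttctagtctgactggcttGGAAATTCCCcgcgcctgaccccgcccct
Nfkbie promoter: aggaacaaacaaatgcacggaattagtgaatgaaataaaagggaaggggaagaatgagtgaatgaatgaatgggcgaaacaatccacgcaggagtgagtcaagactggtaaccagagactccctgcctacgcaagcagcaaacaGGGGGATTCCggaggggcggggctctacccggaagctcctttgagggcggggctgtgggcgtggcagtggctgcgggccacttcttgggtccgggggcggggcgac
Nfkbid promoter, middle start: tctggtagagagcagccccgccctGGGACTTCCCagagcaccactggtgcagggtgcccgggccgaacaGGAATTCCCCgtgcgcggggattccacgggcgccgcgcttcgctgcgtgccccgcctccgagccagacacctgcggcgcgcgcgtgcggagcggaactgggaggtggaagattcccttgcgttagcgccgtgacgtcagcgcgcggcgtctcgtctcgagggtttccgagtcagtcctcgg
The start below this Nfkbid window is that of Nfkbid-202, whose share differed most between the 2 quantifications among the Nfkbid transcripts.

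Most genes that act with the members were detected. Of 52 genes in 6 lists around the pathway, 47 reached 1 TPM in every library, against 44.0% of all protein-coding genes. The lists were chosen with earlier results of these data known. Detected were 5 of 5 Rel subunits, 5 of 5 IKK and TBK1-related kinases, 10 of 10 feedback genes and 16 of 16 primary NF-κB targets. So were 10 of 10 genes listed as IκB degradation machinery, which include its regulators Nkiras1 and Nkiras2, and 1 of 6 genes that depend on IκBζ. Nfkbia exceeded Rela, which encodes the NF-κB subunit p65, by 12.1, 8.98 and 15.2 times in replicates 1, 2 and 3, and Nfkb1, which encodes p50 and its precursor, by 3.32, 2.40 and 4.04 times. The second quantification gave lower ratios to Rela, of 7.18, 5.09 and 6.18, and higher ratios to Nfkb1, of 5.72, 4.15 and 6.75. Nfkb1 was the highest Rel subunit gene at 72.0 ± 7.75 TPM (SD, n = 3) and Rel, which encodes c-Rel, the lowest at 18.3 ± 4.31. Nfkbia and Tnfaip3, the gene of the feedback enzyme A20, were close, with ratios of 0.997, 1.29 and 1.47, and of 1.22, 1.74 and 1.44 in the second quantification. Bcl3 stood at 0.876, 0.947 and 0.916 of Nfkb2, the gene of its partner p52, but at 1.34, 1.72 and 1.36 times Nfkb2 in the second quantification, so the order of this pair depended on the quantification. The IKK subunit gene Ikbkb was at 72.3 ± 1.40 TPM (SD, n = 3), and the highest kinase, Ikbke, at 975 ± 95.9 TPM, with the regulatory subunit gene Ikbkg lowest at 22.5 ± 3.94. In the degradation machinery, Ube2d3, a ubiquitin-conjugating enzyme, was highest at 109 ± 25.0 TPM and Skp1a, a subunit of the ubiquitin ligase, lowest at 4.48 ± 0.494 TPM. The second quantification put Skp1a at 24.8 ± 6.87 TPM, and there Nedd8 was lowest at 10.3 TPM. Among feedback genes Tnip3, an A20-binding protein, was highest at 304 ± 131 TPM and the deubiquitinase Otulin lowest at 16.1 ± 1.53 TPM.

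Genes listed as dependent on IκBζ were low beside Nfkbiz itself. Ebi3 was the single gene of the 6 detected in every library, at 9.90, 6.18 and 9.88 TPM. Lcn2, an iron-sequestering protein of innate defence, was at 4.38, 1.76 and 0.95 TPM, and Il6 was at 1.53, 0.21 and 1.77 TPM. Nfkbiz exceeded Lcn2 by 33.5 to 135 times and Il6 by 72.4 to 281 times, and by 56.9 to 217 and 109 to 292 times in the second quantification. Csf2 was lowest, at 0.13, 0.11 and 0 TPM.

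Among the 16 primary NF-κB targets, 15 were lowest in replicate 2, as were 5 of the 6 members, 4 of 5 Rel subunits, 6 of 10 feedback genes, 4 of 10 genes of the degradation machinery and 2 of 5 kinases, beside 31.2% of detected protein-coding genes. In the second quantification it was 16 of 16 targets, 5 of 5 Rel subunits, 10 of 10 feedback genes, 6 of 10 degradation genes and 5 of 5 kinases, beside 56.3%. Of the 6 genes listed as dependent on IκBζ, most of them not detected in every library, 3 were lowest in replicate 2 in each quantification. In the second quantification this was the list below the 56.3%. The summed TPM of the primary targets was 3126, 1476 and 2409 in replicates 1, 2 and 3, and that of the IκB family 545, 303 and 541. The transcription factor gene Irf1 was the highest target at 411 ± 186 TPM (SD, n = 3) and the prostaglandin synthase gene Ptgs2 the lowest at 11.0 ± 7.33. Cxcl1 was the lowest target of the second quantification, at 12.6 TPM, where Ptgs2 was at 25.0 TPM. Both of these summed levels of the first quantification were lowest in replicate 2, but replicates 1 and 3 were nearly equal for the family and not for the targets. The family sum of the second quantification was 1026, 531 and 896 TPM in replicates 1, 2 and 3. The near equality of replicates 1 and 3 therefore depended on the quantification. Summed TPM of the macrophage markers was 987, 999 and 943 in the first quantification. Much of this sum came from Adgre1, the highest of them, at 248, 353 and 292 TPM. Csf1r, Cd68 and Mrc1 were each lowest in replicate 2, and the other markers were lowest in replicate 1 or 3.

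By Euclidean distance of log2(TPM + 1) over the 3 libraries, a measure of likeness in both level and pattern, the detected protein-coding genes nearest to Nfkbia were Tnf (distance 0.387), the gene of tumour necrosis factor, and H2-Q4 (0.447), a class I gene whose reads may be shared with near-identical relatives. Those nearest to Nfkbiz were Plk2 (0.457), a polo-like kinase, and Il1b (0.462), the gene of interleukin-1β. Nfkbie lay nearest to Btg1 (0.0955) and Pde4b (0.167), Nfkbid to Btg2 (0.0877) and Bud31 (0.0975), Nfkbib to Pmaip1 (0.135) and Tcea1 (0.141), and Bcl3 to Vwa8 (0.0258) and Irak1 (0.0512). Nfkbia and Nfkbiz had 0 genes within 0.25, while Bcl3 had 68, so the neighbours of Bcl3 are the least particular. With 3 libraries these distances describe likeness only.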

How the data were processed

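Expected counts, estimated counts and TPM were made by the authors on mm10 with GENCODE M21, per the file headers and the notes deposited beside the files. The first quantification, from alignments to transcripts, gives expected counts and TPM per gene and transcript. The second gives estimated counts and TPM per transcript. Posterior SDs and credibility bounds in the first are the quantifier's own, per the file headers. No source used here names the aligner, versions or strand setting. Rows outside the annotation held 1.75%, 0.396% and 0.239% of counts in replicates 1, 2 and 3 and were left out; 97 of 141864 rows of the second table had no match. A floor of 3 counts is 0.168 to 0.222 CPM.

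Levels are TPM, ratios used log2(TPM + 1), and detection means TPM of at least 1 in every library. A transcript's share is its percent of the gene's transcript TPM. Expected counts were rounded for edgeR 4.0.16 in R 4.3.3 (filterByExpr, TMM, estimateDisp with an intercept alone, no test between groups). DESeq2 1.42.0 gave alternative size factors. Other steps used Python 3.11.15. The sign-flip test and the dispersion fit were tested on simulated data. The common dispersion was recovered, but single-gene dispersions were strongly shrunk.

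Named were all 6 members, their transcripts at 5% or more of the gene's TPM and every retained_intron transcript, the highest and lowest gene of lists, 8 fixed genes, and the 2 nearest genes of each member. Transcripts and genes outside this rule were named after their values were seen. The members and lists were chosen with earlier results of these data known.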

Additional observations from a re-analysis of the deposited data

How the results depend on the processing

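No paired analysis was possible because the 3 libraries form 1 group. The second quantification moved mean TPM to 414 for Nfkbia, 32.5 for Nfkbib, 165 for Nfkbiz, 71.0 for Nfkbid and 102 for Bcl3, and the retained-intron share to 36.4% for Nfkbia, 65.1% for Nfkbie and 24.2% for Bcl3. It reversed the mean log2 ratio of Nfkbie to Nfkbib to -0.043. With protein_coding transcripts alone, mean TPM was 6.85 for Nfkbie, 20.8 for Nfkbid and 13.9 for Bcl3. Leaving out each library in turn, the log2 ratio of Bcl3 to Nfkbid ranged from -0.074 to 0.30 and that of Nfkbid to Nfkbie from -0.0074 to 0.17, both negative without replicate 2, and the coefficient of variation of Nfkbiz ranged from 0.179 to 0.233. Without the ribosomal RNA locus, Bcl3 rescaled to 40.8 TPM. As a share of expected counts, retained_intron transcripts held 3.35% for Nfkbia, 8.29% for Nfkbid and 31.3% for Bcl3, and by posterior mean TPM 59.8% for Bcl3. The cause of these shifts was not tested. The remaining member levels, retained-intron shares, neighbour ratios, spreads and detection counts kept their direction, with levels and shares within 1 SD of the libraries and counts and spreads within 1.5 times, under these settings and under another pseudocount, other detection limits, no filter on low counts and DESeq2 size factors where these apply. Single transcripts, pathway genes and ratios to them were compared between the 2 quantifications alone, and several differed widely, as given beside them. Alternatives for the deviation of each library were added after seeing the data. Lower counts limit Nfkbib and the short retained_intron transcripts most.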
